A study of Oryza sativa with 4 samples.

Results

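The growth of the phoenix (pho) panicle was followed in 2 arrays, which compared panicles that had reached 9-12 cm with shorter ones measuring 5-8 cm. Among the 57258 probe sets for rice transcripts, 24058 averaged 100 or more over these 2 arrays and were kept, representing 14433 of 17905 genes, and each was described by its log2 ratio at 9-12 cm over 5-8 cm. The pho line arose naturally in the offspring of the Indica rice cultivar Zhongxian 3037 and carries both a mutation in OsMADS15 and a silenced OsMADS1. Its panicles bear plantlets in place of flowers. The other 2 arrays came from WT panicles of Zhongxian 3037 with the same lengths, and are used only to show which shifts with length were missing there. The field-grown plants stood in paddies in Beijing, and whole panicles were taken, so that fewer cells of a type and less RNA per cell cannot be told apart. The text of the study describes panicles of 5-8 cm only, and a description line of the WT sample of 9-12 cm names pho, while its title and genotype give WT.

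A grass panicle grows first by cell division in its branch and spikelet meristems and later by elongation and wall thickening of the axis and the organs. MADS-box factors of the AP1/FUL and SEP groups, to which OsMADS15 and OsMADS1 belong, give the spikelet and its floral organs their identity.

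The values were Affymetrix GeneChip Rice Genome Array signals, which the authors had scaled to the same overall intensity. Ratios were taken as log2((signal + 16)/(signal + 16)), so that ratios of low signals are understated. With 1 array for each genotype and length there was no replicate, and no difference could be tested against a replicate spread. A shift of at least 2-fold, a log2 ratio of 1 or more or of -1 or less, is called here, and a called pho shift is missing in WT where WT changed by less than 1.5-fold the same way or changed the other way. Where a gene had several probe sets, the brightest in pho on average stood for it. Across the kept probe sets, the log2 signals of the pho arrays of both lengths had a correlation of 0.818, and those of the WT arrays of both lengths 0.942. The median signal was 68.1 in pho panicles of 9-12 cm and 50.5 in pho panicles of 5-8 cm, and the medians were 60.5 in WT panicles of 9-12 cm and 49.0 in WT panicles of 5-8 cm. The 3'/5' signal ratio of the actin control, which rises when RNA is degraded, was 5.26 in pho panicles of 9-12 cm and 3.28 in pho panicles of 5-8 cm, against 4.95 and 10.6 in WT panicles of 9-12 and 5-8 cm. The part of RNA quality in the shifts was not tested.

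The mutated genes were examined first. OsMADS1 had signals of 109.3 and 4.6 in pho panicles of 9-12 and 5-8 cm, against 10671 and 10165.8 in WT panicles of 9-12 and 5-8 cm. It was therefore far below WT in pho at both lengths and did not pass the filter on low signals. The signals of OsMADS15 were 16022.4 and 15892.2 in pho panicles of 9-12 and 5-8 cm, with a log2 ratio of 0.01, and 15321.4 and 14444.1 in WT panicles of 9-12 and 5-8 cm. The 4 probe sets of OsMADS15 had log2 ratios of -0.12 to 0.19 in pho. The OsMADS1 signals thus placed both pho samples with the genotype on their labels, and likewise the WT samples, including the one of 9-12 cm.

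In pho, 3482 of the 24058 kept probe sets (14.5%) were at least 2-fold higher at 9-12 cm, and 2486 (10.3%) were at least 2-fold lower. The large shifts lay on the higher side. A total of 1489 probe sets were at least 4-fold higher and 235 at least 4-fold lower, and 254 were at least 16-fold higher against 1 that was 16-fold lower. The ratios ran between -4.05 and 8.27 on the log2 scale with a median of -0.11, and 12821 probe sets (53.3%) lay within 1.5-fold. Of the higher probe sets, 1333 had a signal under 100 at 5-8 cm, and of the lower ones 440 had a signal under 100 at 9-12 cm. Such probe sets passed the filter only through the array in which they were high. In WT, 1511 of 23328 probe sets with a WT mean of at least 100 (6.48%) were 2-fold higher at 9-12 cm, and 657 (2.82%) were 2-fold lower. The pho split between higher and lower depends on the scaling, since 58.3% of its called shifts were higher with the signals as deposited and 33.6% with each array centred on the median of all probe sets.

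**Figure D1:**
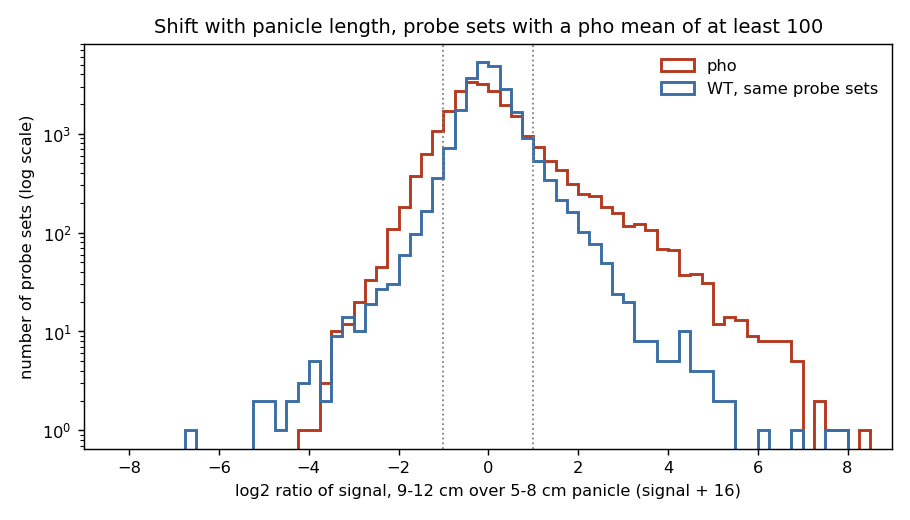
Number of probe sets (log scale) by log2 ratio of signal, 9-12 cm over 5-8 cm, for pho (red) and WT (blue) over the 24058 probe sets kept in pho. Dotted lines mark 2-fold, and the pho distribution has the longer tail of rises, with 1489 probe sets at least 4-fold higher.

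Over genes, the kept probe sets represented 14433 genes, of which 2244 (15.5%) were at least 2-fold higher in pho at 9-12 cm and 1316 (9.12%) at least 2-fold lower, with a median log2 ratio of -0.08. These shares and this median are the background for each gene group below. In WT the shares over the same genes were 6.01% higher and 2.9% lower, and the median was -0.03. Where a gene called higher had other probe sets, all of these shifted the same way for 219 of 239 genes, and for genes called lower this held for 126 of 138.

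Most genes of DNA replication were lower in the longer pho panicles. Of 24 kept genes, 15 were at least 2-fold lower at 9-12 cm and 0 higher, with a median log2 ratio of -1.28 in pho and -0.39 in WT. All of MCM2 to MCM7, which form the helicase ring that opens the replication fork, were among the 15. MCM3 had signals of 991.8 and 3591.8 in pho panicles of 9-12 and 5-8 cm, a log2 ratio of -1.84, against 1865.8 and 3048.3 in WT panicles of 9-12 and 5-8 cm (-0.70). OsMCM6 (-1.76) and MCM7 (-1.73) followed. PCNA, the sliding clamp of the polymerases, had signals of 2038.3 and 5154.0 in pho panicles of 9-12 and 5-8 cm and of 3807.8 and 5294.3 in WT panicles of 9-12 and 5-8 cm. The WT ratios had the same sign as those of pho in 22 of the 24 genes, without reaching 2-fold in any. Among the genes under 2-fold in pho were both FEN1 nucleases (-0.66 and -0.64) and RPA14 (0.04).

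Kinesins, the microtubule motors that include those of the spindle and the phragmoplast, were more often lower than higher. Of 32 kept kinesin genes, 14 were called lower and 2 higher, with a median of -0.83 in pho and -0.25 in WT. KIN14E, the lowest, had signals of 408.4 and 1600.7 in pho panicles of 9-12 and 5-8 cm and of 854.7 and 1533.4 in WT panicles of 9-12 and 5-8 cm. KIN10C (-1.85) was next. KIN14B (2.57) and KIN14M (1.78) were the pair that went the other way, both at low signals in pho panicles of 5-8 cm (33.4 and 52.7).

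Of 40 cyclins, cyclin-dependent kinases and their inhibitors, 13 were lower and 1 was higher in pho, and the median was -0.59, against -0.16 in WT. The D-type cyclin CYCD3-1, which drives entry into the division cycle, was among the 12 named genes with the largest falls. Its signals were 511.5 and 2821.5 in pho panicles of 9-12 and 5-8 cm, a log2 ratio of -2.43, against 1734.2 and 2262.0 in WT panicles of 9-12 and 5-8 cm (-0.38). CYCD2-2 was lower in pho (-1.82) and had a ratio of 0.27 in WT. The single gene called higher was KRP6, whose product belongs to the family that inhibits cyclin-dependent kinases, with signals of 4463.2 and 1072.4 in pho panicles of 9-12 and 5-8 cm. In WT it had a ratio of 0.92.

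Chromatin and small RNA genes were also more often lower than higher. OsCMT3a, a chromomethylase, had signals of 755.0 and 2560.5 in pho panicles of 9-12 and 5-8 cm and of 1389.6 and 2113.9 in WT panicles of 9-12 and 5-8 cm. MET1-2, which maintains CG methylation, had 983.6 and 3054.5 in pho panicles of 9-12 and 5-8 cm and 2511.1 and 3062.4 in WT panicles of 9-12 and 5-8 cm. Of 11 kept genes of DNA methylation and histone modification, 4 were lower and 0 higher in pho, with a median of -0.68. Of 18 Argonaute, Dicer and related genes, 6 were lower and 1, AGO18 (2.22), was higher, with a median of -0.85. The ratios of the 25 ribosomal protein genes kept were smaller: 23 were below 0, and only RPL39C (-1.08) passed 2-fold downwards and rpl5 (gene 4331459, 1.04) upwards. Their median was -0.52 in pho and 0.07 in WT. The 3 histone H2B genes kept had ratios of -1.33 for OsH2B, -0.87 for H2B.6 and -0.70 for H2B.5 in pho, against 0.06 to 0.15 in WT.

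Among growth-regulating factors, the GRF transcription factors that promote cell proliferation in young organs, 5 of 10 kept genes were lower in pho, 0 were higher and all 10 had a ratio below 0. The median was -1.09 in pho and -0.40 in WT. GRF1 had signals of 506.9 and 2218.1 in pho panicles of 9-12 and 5-8 cm, a log2 ratio of -2.10, against 1322.0 and 1878.4 in WT panicles of 9-12 and 5-8 cm (-0.50). GRF8 (-1.88), GRF12 (-1.85), GRF10 (-1.41) and GRF4 (-1.37) were the others called. With a minimum mean signal of 200 the median of the group was -0.81.

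**Figure D2:**
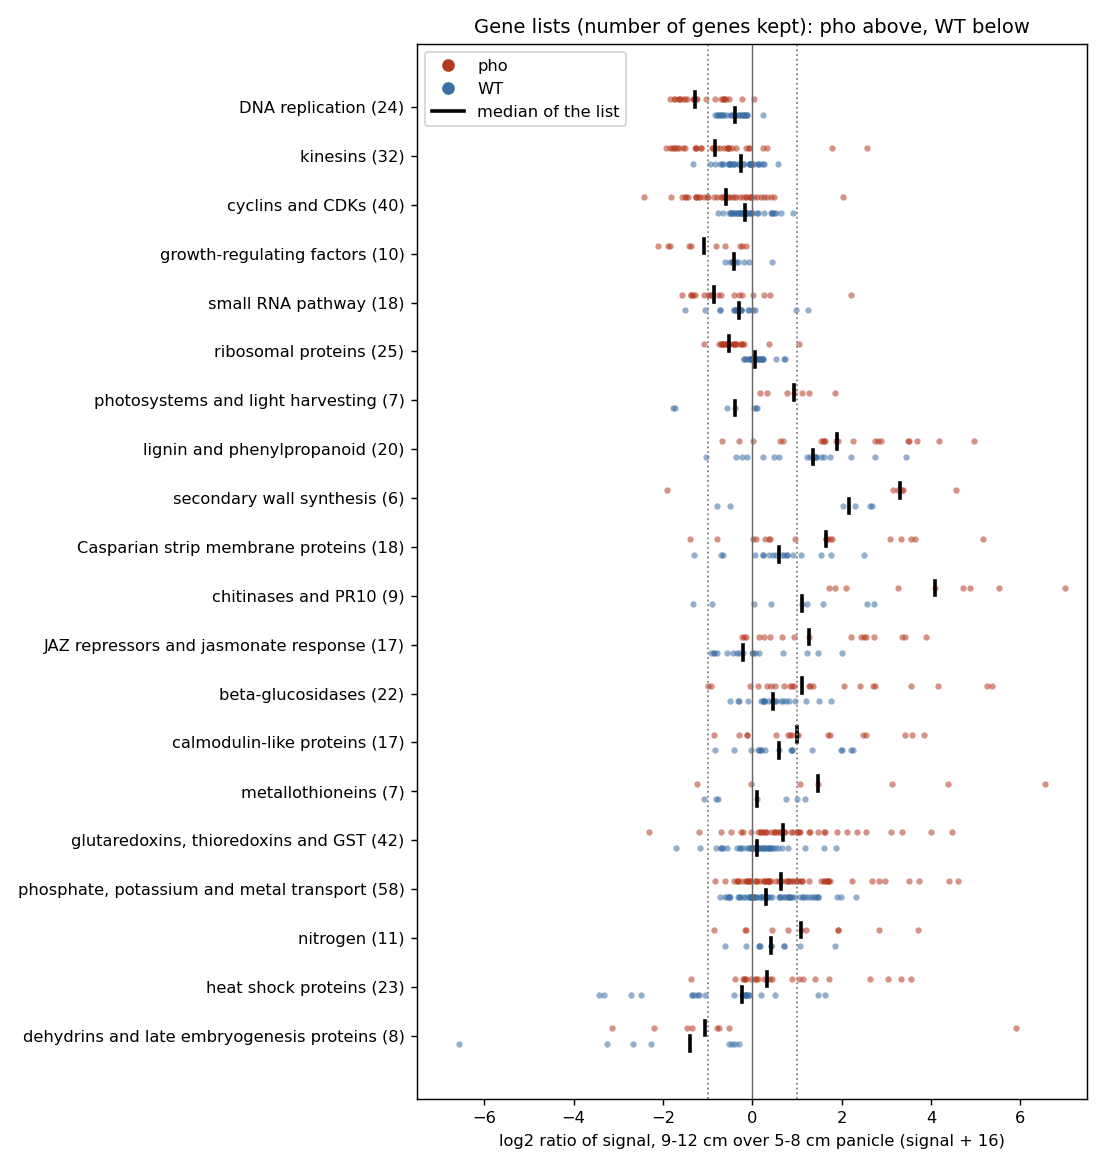
Log2 ratio of signal, 9-12 cm over 5-8 cm, of each kept gene in 20 gene groups, with pho (red) above WT (blue) in each row, black bars at the medians and dotted lines at 2-fold. DNA replication has its pho median at -1.28 and lignin and phenylpropanoid genes at 1.89, and 8 of the 9 chitinase and PR10 genes shown were under 100 in pho panicles of 5-8 cm.

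Regulators of branching and floral identity shifted in both directions. SPL14, the squamosa-promoter-binding factor known for fewer tillers and more panicle branches, had signals of 267.1 and 1878.8 in pho panicles of 9-12 and 5-8 cm, a log2 ratio of -2.74, against 817.4 and 1504.2 in WT panicles of 9-12 and 5-8 cm (-0.87). Of 11 kept SPL genes, 3 were lower and 1 higher, and their median was 0.06, or -0.28 with each array centred on the median of all probe sets. SPL16, a regulator of grain width, had signals of only 141.1 and 458.0 in pho panicles of 9-12 and 5-8 cm, compared with 4054.6 and 3761.2 in WT panicles of 9-12 and 5-8 cm. LG1, needed for the ligule of the leaf, was the SPL gene called higher (1.38), with 499.5 and 182.2 in pho panicles of 9-12 and 5-8 cm.

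Of the SEP-like MADS-box genes, OsMADS34 and OsMADS5 were lower and OsMADS7 and OsMADS8 were not called. OsMADS34, which acts in panicle branching and spikelet formation, had signals of 786.2 and 2269.7 in pho panicles of 9-12 and 5-8 cm (-1.51) and of 615.7 and 569.7 in WT panicles of 9-12 and 5-8 cm (0.11). OsMADS5 had 620.0 and 1577.8 in pho panicles of 9-12 and 5-8 cm (-1.33), and 6021.8 and 7152.3 in WT panicles of 9-12 and 5-8 cm (-0.25). OsMADS8 reached only 318.6 and 156.7 in pho panicles of 9-12 and 5-8 cm, against 8361.2 and 9202.9 in WT panicles of 9-12 and 5-8 cm. The 3 kept AP1/FUL-like genes, OsMADS14, OsMADS15 and OsMADS18, had ratios between -0.42 and 0.03. The B-class genes diverged. OsMADS2 was lower at 9-12 cm (1183.7 and 2591.8 in pho panicles of 9-12 and 5-8 cm, -1.12), and OsMADS16, which makes lodicules and stamens, was higher (2868.5 and 1294.6 in pho panicles of 9-12 and 5-8 cm, 1.14). OsMADS55, a relative of SVP, was higher in both genotypes (1.28 in pho and 1.40 in WT). None of the 6 C-class, D-class and B-sister genes with a probe set passed the filter in pho. OsMADS58, a C-class gene of the inner floral organs, had signals of 65.9 and 67.8 in pho panicles of 9-12 and 5-8 cm, against 2255.6 and 2136.7 in WT panicles of 9-12 and 5-8 cm.

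Homeobox genes were split as well. Of 11 kept KNOX and WOX genes, 3 were higher and 2, OSH1 and HOS16 (-1.19), were lower in pho. OSH1, the rice KNOX gene that maintains the meristem, was lower in pho (3377.7 and 7773.3 in pho panicles of 9-12 and 5-8 cm, -1.20) and had a ratio of -0.37 in WT. HOS66, listed with the KNOX genes, was higher, with 3551.1 and 161.5 in pho panicles of 9-12 and 5-8 cm (4.33) and 530.6 and 168.4 in WT panicles of 9-12 and 5-8 cm (1.57). HOS59 (1.41) and OSH45 (1.39) were called higher in pho and had WT ratios of 0.06 and -0.38. Of 28 HD-Zip genes, 5 were higher and 5 lower, and of 13 YABBY and leaf polarity genes, some of them HD-Zip genes too, 2 were higher and 4 lower. For both lists the share higher was thus close to the background of 15.5%, and the share lower was above the background of 9.12%. OsHox32 (-1.89) and OsHox33 (-1.66), class III genes of leaf polarity, were lower in pho with WT ratios of -0.28 and -0.51. OsHox6 was the HD-Zip gene with the largest rise (1642.6 and 302.6 in pho panicles of 9-12 and 5-8 cm, 2.38), and its WT ratio was 0.43.

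Kept genes of Rubisco and its activase were higher in the longer pho panicles. RCA encodes the Rubisco activase, and its signals were 9604.2 and 1437.5 in pho panicles of 9-12 and 5-8 cm, a log2 ratio of 2.73, against 1224.9 and 910.5 in WT panicles of 9-12 and 5-8 cm (0.42). RBCS, the small subunit of Rubisco, had 11042.0 and 2851.8 in pho panicles of 9-12 and 5-8 cm (1.95) and 1134.3 and 1653.9 in WT panicles of 9-12 and 5-8 cm (-0.54). CFBP1, a fructose bisphosphatase, had 390.7 and 55.4 in pho panicles of 9-12 and 5-8 cm (2.51) and 74.1 and 77.9 in WT panicles of 9-12 and 5-8 cm (-0.06). RCA, RBCS and CFBP1, which was listed with these Rubisco genes, were thus all called higher in pho, and each was missing in WT. However, CFBP1 passed the filter only through pho panicles of 9-12 cm, where it was high. RBCS1, a further gene of this list, did not pass (78.1 and 16.2 in pho panicles of 9-12 and 5-8 cm).

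The photosystem and light-harvesting genes followed to a smaller degree. All 7 kept genes had a ratio above 0 in pho and 3 were called, with a median of 0.94, against -0.38 in WT. PSAH, a subunit of photosystem I, had signals of 6382.9 and 1752.3 in pho panicles of 9-12 and 5-8 cm (1.86) and of 1159.8 and 1099.8 in WT panicles of 9-12 and 5-8 cm (0.08). The summed signal of the 7 genes was 84491 and 54025 in pho panicles of 9-12 and 5-8 cm, and 32138 and 42531 in WT panicles of 9-12 and 5-8 cm. Chlorophyll synthesis genes were not called in either direction in pho (0 of 7), and 3 of the 7 were 2-fold lower in WT. For SGR, which starts chlorophyll breakdown, the signals were 1540.2 and 200.7 in pho panicles of 9-12 and 5-8 cm (2.84) and 494.5 and 548.4 in WT panicles of 9-12 and 5-8 cm (-0.14).

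Of 6 kept circadian clock genes, 0 were called in pho, and 2 were higher and 1 lower in WT. CCA1, a morning gene of the circadian clock, had signals of 14071.3 and 14906.2 in pho panicles of 9-12 and 5-8 cm, against 340.1 and 12714.1 in WT panicles of 9-12 and 5-8 cm. GI, which peaks later in the day, had 2355.4 and 1276.3 in pho panicles of 9-12 and 5-8 cm and 8978.0 and 1265.3 in WT panicles of 9-12 and 5-8 cm. For both genes the WT panicles of 9-12 cm were thus the sample farthest from the other 3. The hour of sampling is not given in the sources used here, and its part in the shifts missing in WT was not tested.

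Most of the secondary cell wall genes kept were higher in both genotypes. OsCesA4, OsCesA7 and OsCesA9, the cellulose synthases of secondary walls, were each called higher in both. OsCesA4 had signals of 6461.8 and 613.6 in pho panicles of 9-12 and 5-8 cm (3.36) and of 2512.5 and 498.0 in WT panicles of 9-12 and 5-8 cm (2.30). BC1, the COBRA-like protein of the brittle culm mutant, had 2200.6 and 78.0 in pho panicles of 9-12 and 5-8 cm (4.56) and 464.7 and 59.2 in WT panicles of 9-12 and 5-8 cm (2.68). Of 6 kept genes of this list, 5 were higher (2 under 100 in pho panicles of 5-8 cm) and 1, BC1L2 (-1.91), was lower. The summed signal of its 7 measured members was 17050 and 3276 in pho panicles of 9-12 and 5-8 cm and 7508 and 2824 in WT panicles of 9-12 and 5-8 cm. BC1L9, another COBRA-like gene, was higher in pho (1932.9 and 172.8 in pho panicles of 9-12 and 5-8 cm) but not in WT (39.3 and 62.0 in WT panicles of 9-12 and 5-8 cm).

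Of 20 kept genes of lignin and phenylpropanoid synthesis, 15 were higher in pho and 0 lower, with a median of 1.89, and 13 were higher in WT, where the median was 1.36. Of the 15, 11 were among the 13, and 4 of the 15 had a signal under 100 in pho panicles of 5-8 cm. LAC7, a laccase of the family that polymerizes lignin, had signals of 1379.7 and 28.4 in pho panicles of 9-12 and 5-8 cm (4.97) and of 67.6 and 18 in WT panicles of 9-12 and 5-8 cm (1.30). CHS1, the chalcone synthase at the entry to flavonoids, had 11386.6 and 614.7 in pho panicles of 9-12 and 5-8 cm (4.18) and 2548.7 and 218.2 in WT panicles of 9-12 and 5-8 cm (3.45). LAC7 and CHS1 were thus higher in both genotypes. The 4 genes called in pho and not in WT were PAL06, CAD6 (1.53; WT -0.37), 4CL.2 (1.58; WT -0.11) and CAD2 (1.61; WT 0.60). PAL06, a phenylalanine ammonia-lyase, had 1348.1 and 104.0 in pho panicles of 9-12 and 5-8 cm (3.51) and 83.4 and 68.9 in WT panicles of 9-12 and 5-8 cm (0.23).

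Among genes of wall loosening, the endoglucanases and xyloglucan enzymes shifted both ways. In pho 1 of 9 kept genes was higher, 3 were lower and 5 were not called, with a median of 0.39. Among the 3 lower ones, 2 had a signal under 100 at 9-12 cm and passed the filter only through 5-8 cm. GLU12, an endo-1,4-beta-glucanase, had the largest fall of any named gene, with signals of 31.7 and 727.7 in pho panicles of 9-12 and 5-8 cm (-3.96) and of 443.8 and 744.6 in WT panicles of 9-12 and 5-8 cm (-0.73). GLU14 (18.7 and 284.2 in pho panicles of 9-12 and 5-8 cm, -3.11) and GLU13 (1600.9 and 7063.5, in the same order, -2.13) were also lower, with WT ratios of -0.06 and -0.47. GLU10 was higher in both genotypes (3.42 in pho and 2.49 in WT). Of 18 expansins, which loosen walls in growing cells, 7 were higher and 4 lower in pho. EXLA1, an expansin-like gene, had 5106.7 and 510.0 in pho panicles of 9-12 and 5-8 cm (3.28) against 312.3 and 315.4 in WT panicles of 9-12 and 5-8 cm (-0.01), whereas EXPB6 was higher in both (2.06 in pho and 1.51 in WT). EXPB7 (-1.90) and EXPB17 (-1.53) were the lowest, with WT ratios of -0.62 and -0.50. OsCesA2, of the primary-wall cellulose synthases, went opposite ways, with 422.3 and 1289.3 in pho panicles of 9-12 and 5-8 cm (-1.57) and 485.8 and 190.9 in WT panicles of 9-12 and 5-8 cm (1.28). Of 18 Casparian strip membrane proteins and their relatives, 10 were higher and 1 lower, led by OsCASPL1B1 (1065.3 and 14.2 in pho panicles of 9-12 and 5-8 cm, 5.16), which was also higher in WT (271.1 and 34.4 in WT panicles of 9-12 and 5-8 cm, 2.51). A signal under 100 in pho panicles of 5-8 cm was found for 4 of the 10.

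Several of the largest rises among named genes were in genes known from defence. Pi21, whose functional allele makes rice more susceptible to blast, had the largest ratio of any named gene. Its signals were 5438.5 and 12.8 in pho panicles of 9-12 and 5-8 cm (7.57), against 45.9 and 69.5 in WT panicles of 9-12 and 5-8 cm (-0.47). PBZ1, a probenazole-inducible PR10 protein, had 7603.3 and 43.6 in pho panicles of 9-12 and 5-8 cm (7.0) and 133.6 and 264.1 in WT panicles of 9-12 and 5-8 cm (-0.90). Both genes were thus abundant in 1 sample of the 4, the pho panicles of 9-12 cm. OsChia4a, a chitinase, had 1575.4 and 18.8 in pho panicles of 9-12 and 5-8 cm (5.52) and 3.9 and 3.5 in WT panicles of 9-12 and 5-8 cm. Of 13 chitinase and PR10 genes with a probe set, 9 passed the filter and were called higher in pho, but 8 of these 9 had a signal under 100 in pho panicles of 5-8 cm and so passed only through those of 9-12 cm, where they were high. The count is therefore largely fixed by the filter. Without the filter the median over the 13 was 2.71. In WT, 5 of the 9 were higher and 1 was lower. Chib3H-a, a chitinase and the gene of the 9 above 100 at both lengths in pho, had 3324.0 and 766.8 in pho panicles of 9-12 and 5-8 cm (2.09) and 331.3 and 853.7 in WT panicles of 9-12 and 5-8 cm (-1.32). Chia1d, a further chitinase, was higher in both genotypes, with 276.7 and 65.5 in pho panicles of 9-12 and 5-8 cm and 11084.1 and 1667.2 in WT panicles of 9-12 and 5-8 cm.

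Of the 5 WRKY factors kept, WRKY62, WRKY71 and WRKY76 were higher, and WRKY9 (-0.64) and WRKY51 (-0.50) were not called. WRKY62, a negative regulator of innate immunity, had signals of 1076.0 and 57.4 in pho panicles of 9-12 and 5-8 cm (3.90) and of 4.9 and 33.0 in WT panicles of 9-12 and 5-8 cm (-1.23). WRKY71, known for repressing gibberellin signalling in the aleurone, had 3021.7 and 346.6 in pho panicles of 9-12 and 5-8 cm (3.07) and 60.9 and 175.6 in WT panicles of 9-12 and 5-8 cm (-1.32). WRKY76 was higher in WT too (2.03).

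Of the genes listed for jasmonate synthesis and response, some were called higher. LOX1.1, a lipoxygenase, had signals of 2908.0 and 16.9 in pho panicles of 9-12 and 5-8 cm (6.47) and of 30.1 and 161.9 in WT panicles of 9-12 and 5-8 cm (-1.95). Of 10 kept genes of the synthesis list 4 were higher and 0 lower, with a median of 0.73. Among these 4 were the lipoxygenases LOX1.1 and LOX5 (1.06), whose part in jasmonate synthesis was not tested. The enzymes of the middle of the pathway were split. Of the allene oxide synthases kept, AOS3 was higher (193.9 and 33.7 in pho panicles of 9-12 and 5-8 cm, 2.08) and AOS (gene 4334233) had a ratio of 0.34. Of the oxophytodienoate reductases, OPR4 was higher (207.1 and 51.0 in pho panicles of 9-12 and 5-8 cm, 1.74), and OPR7 (0.60) and OPR8 (-0.24) were not called. OsAOC, the allene oxide cyclase, had 0.86. Of the 4 synthesis genes called, 3 had a signal under 100 in pho panicles of 5-8 cm and passed the filter only through those of 9-12 cm. Of 17 JAZ repressors and response genes, 9 were higher in pho and 0 lower, with a median of 1.26, against -0.21 in WT. Here too, 4 of the 9 had a signal under 100 in pho panicles of 5-8 cm. JAZ13 (467.5 and 16.7 in pho panicles of 9-12 and 5-8 cm, 3.89) and JAZ10 (2265.6 and 196.7, in the same order, 3.42) were higher in WT as well (2.00 and 1.23). JAZ12 (3305.0 and 483.6 in pho panicles of 9-12 and 5-8 cm, 2.73), JAZ11 (2.54) and JAZ8 (2.43) were not, with WT ratios of -0.79, -0.92 and -0.86. The receptor genes OsCOI1a (-0.14), OsCOI1b (0.14) and COI2 (-0.23) were not called.

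**Figure D3:**
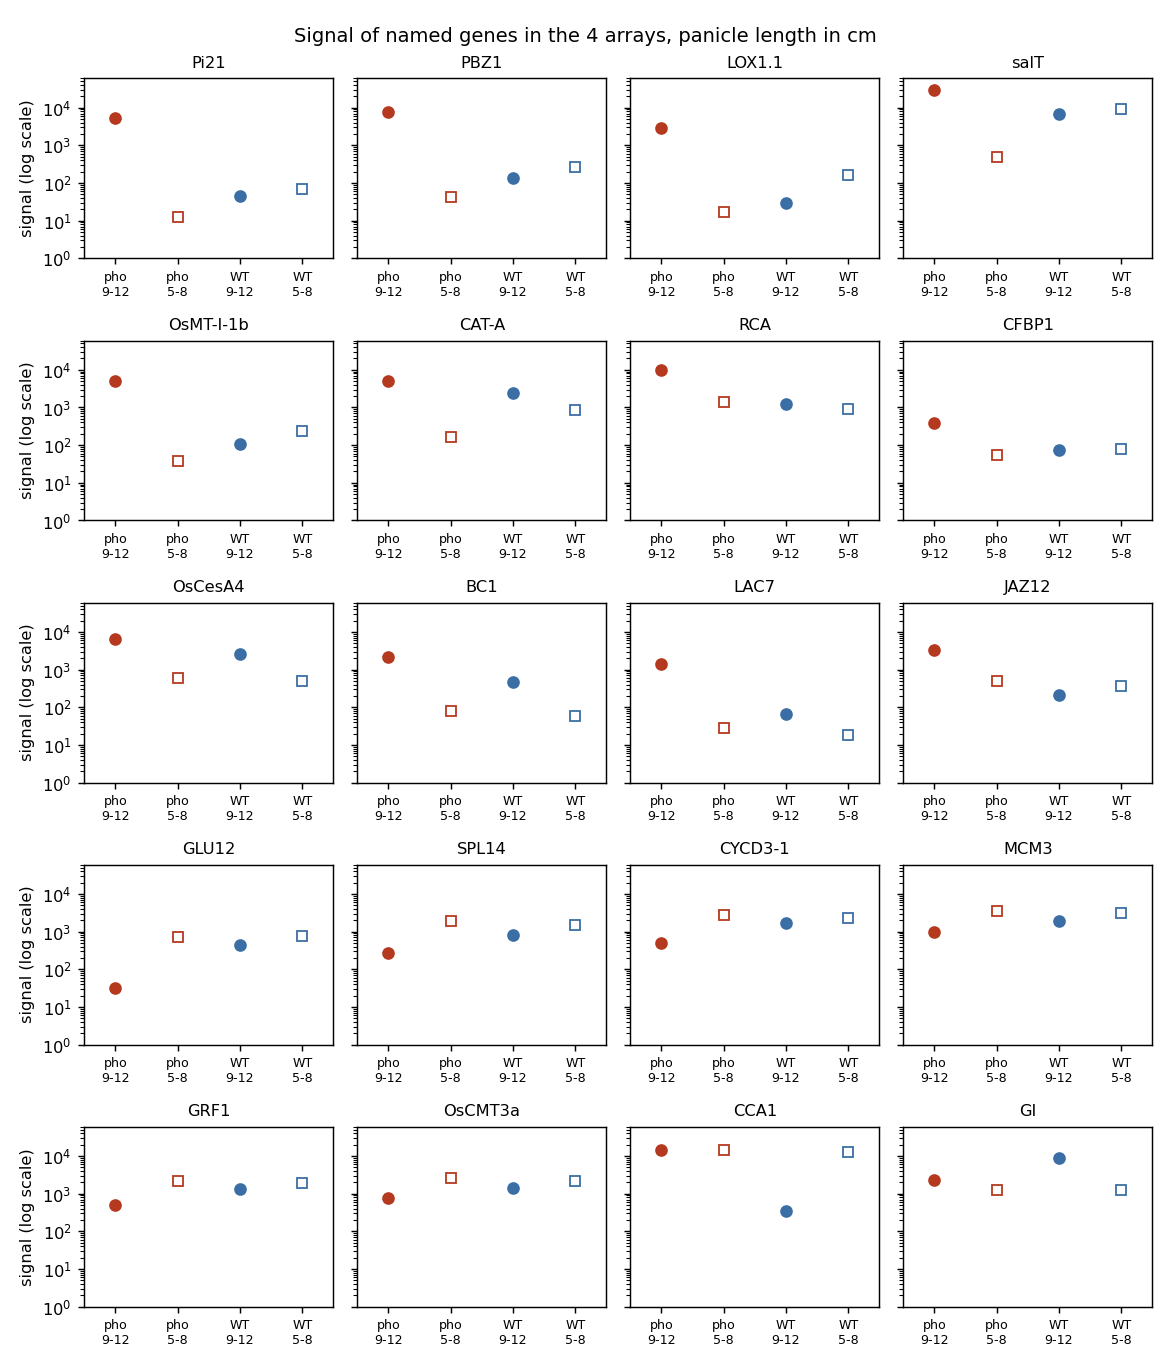
Signal (log scale) of 20 genes in the 4 arrays, with pho in red, WT in blue, filled circles for 9-12 cm and open squares for 5-8 cm, 1 array per point. Pi21, PBZ1 and LOX1.1 are high only in pho panicles of 9-12 cm, OsCesA4 and BC1 are higher at 9-12 cm in both genotypes, and CCA1 is low only in WT panicles of 9-12 cm.

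Of 22 kept beta-glucosidases, which release hormones and defence compounds from their sugars, 11 were higher in pho, 0 lower and 11 not called, compared with 3 higher in WT. Of the 11, 5 had a signal under 100 in pho panicles of 5-8 cm. The summed signal of the 27 measured members was 31748 and 33490 in pho panicles of 9-12 and 5-8 cm, so that the sum was not higher at 9-12 cm. BGLU31 had signals of 1058.6 and 9.9 in pho panicles of 9-12 and 5-8 cm (5.37) and of 87.0 and 58.4 in WT panicles of 9-12 and 5-8 cm (0.47). BGLU10 had 1518.0 and 23.9 in pho panicles of 9-12 and 5-8 cm (5.26) and 66.9 and 52.8 in WT panicles of 9-12 and 5-8 cm (0.27). The calmodulin-like calcium sensors had 9 of 17 genes higher and 0 lower in pho and 5 higher in WT, with medians of 1.0 in pho and 0.59 in WT, and 2 genes were higher in both. Among the 9 higher in pho, 2 calmodulin-like genes had a signal under 100 in pho panicles of 5-8 cm. Both families were chosen after values were seen. CML8 (1321.3 and 77.3 in pho panicles of 9-12 and 5-8 cm, 3.84) and CML4 (3.42) had WT ratios of -0.03 and 0.15, whereas CML31 (3.57) was higher in WT too (1.34).

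Metal-binding and redox proteins formed another group. OsMT-I-1b, a metallothionein, had signals of 5053.8 and 37.9 in pho panicles of 9-12 and 5-8 cm (6.56) and of 108.0 and 244.6 in WT panicles of 9-12 and 5-8 cm (-1.07). MT-1, a further type 1 metallothionein, had 3355.9 and 147.1 in pho panicles of 9-12 and 5-8 cm (4.37) and 642.8 and 1099.9 in WT panicles of 9-12 and 5-8 cm (-0.76). Of 7 metallothionein genes kept, 5 were higher, 1 lower (OsMT-I-4c, -1.23), and OsMT-I-2c had a ratio of -0.02. CAT-A, a catalase that breaks down hydrogen peroxide, had 5164.4 and 167.9 in pho panicles of 9-12 and 5-8 cm (4.82) and 2368.2 and 857.7 in WT panicles of 9-12 and 5-8 cm (1.45). It and OsAPx08 (2.00), an ascorbate peroxidase, were the only 2 of 12 catalase, peroxidase and superoxide dismutase genes called. Of 42 glutaredoxin, thioredoxin, methionine sulphoxide reductase and glutathione transferase genes, 17 were higher and 2 lower. Among the 17, 4 had a signal under 100 in pho panicles of 5-8 cm. GRXC15 (1340.0 and 44.7 in pho panicles of 9-12 and 5-8 cm, 4.48) and GRXC1 (503.5 and 16.7, in the same order, 3.99) had WT ratios of 0.35 and -0.66, and GRXC3, also a glutaredoxin, was lower (276.6 and 1450.1, in the same order, -2.32).

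Stress proteins did not move as 1 block. The salt-induced lectin salT had signals of 30061.1 and 488.3 in pho panicles of 9-12 and 5-8 cm (5.90), while WT panicles of 9-12 and 5-8 cm had 6955.5 and 9144.0. It was listed with dehydrins and late embryogenesis proteins, which accumulate in drying tissue and seeds. In this list 4 of 8 kept genes were lower in pho, and 1, the lectin salT itself, was higher. The other 7 all had a pho ratio below 0. In WT 4 of the 8 were lower and 0 higher. EM had 902.1 and 8139.9 in pho panicles of 9-12 and 5-8 cm (-3.15) and 74.7 and 846.1 in WT panicles of 9-12 and 5-8 cm (-3.25). LEA19 was lower in both as well (-2.20 in pho and -2.26 in WT). RAB21 was not called in pho (8349.7 and 14465.7 in pho panicles of 9-12 and 5-8 cm, -0.79) and had 27.2 and 4088.9 in WT panicles of 9-12 and 5-8 cm (-6.57). Of 23 heat shock protein genes, 8 were higher and 1 lower in pho, and 2 were higher and 10 lower in WT. In pho panicles of 5-8 cm, 4 of these 8 had a signal under 100 and passed the filter only through those of 9-12 cm. OsHsp18.8 (3348.2 and 271.7 in pho panicles of 9-12 and 5-8 cm, 3.55) was higher in WT too (1.47), and OsHsp16.9A (2269.7 and 212.8, in the same order, 3.32) was not (0.19). Of 19 heat shock factors, 4 were higher in pho and 0 lower. Of 18 NAC, DREB, MYB and SAP stress factors, 7 were higher and 0 lower in pho, with a median of 0.89. In WT 5 were higher and 2 lower. Higher in pho were NAC2, NAC3, NAC4, NAC6, MYB2, OsMyb4 and SAP11, and none of the kept DREB and CBF genes was called. A signal under 100 in pho panicles of 5-8 cm was found for 2 of the 7.

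Of 58 kept genes for phosphate, potassium and metal transport, 20 were called higher in pho, 0 were lower and 38 were not called, with a median of 0.64. In WT 13 were higher, 8 of them among the 20, and 8 of the 20 had a signal under 100 in pho panicles of 5-8 cm. PT8, a phosphate transporter, had signals of 1164.5 and 32.5 in pho panicles of 9-12 and 5-8 cm (4.61) and of 288.7 and 60.7 in WT panicles of 9-12 and 5-8 cm (1.99). NAAT1, the nicotianamine aminotransferase on the way to iron-chelating phytosiderophores, had 266.7 and 5.3 in pho panicles of 9-12 and 5-8 cm (3.73) and 12.9 and 11.1 in WT panicles of 9-12 and 5-8 cm (0.09). The yellow-stripe-like transporter osysl12 had 1540.6 and 57.2 in pho panicles of 9-12 and 5-8 cm (4.41), and its WT ratio was 1.47. Of 11 nitrogen genes, 6 were higher, 3 of them with a signal under 100 in pho panicles of 5-8 cm, and 0 were lower. OsAMT2;1 (215.6 and 1.8 in pho panicles of 9-12 and 5-8 cm, 3.70) and AMT1 (950.4 and 119.7, in the same order, 2.83), both ammonium transporters, had WT ratios of 0.71 and 0.17. NIA1, a nitrate reductase, had 685.6 and 168.9 in pho panicles of 9-12 and 5-8 cm (1.92) and 80.5 and 132.6 in WT panicles of 9-12 and 5-8 cm (-0.62). Of 19 aquaporins, 4 were higher and 1 was lower. OsPIP1;3 had 1167.8 and 116.9 in pho panicles of 9-12 and 5-8 cm (3.16), and OsPIP2;7, the lower one, had 201.0 and 755.6 in pho panicles of 9-12 and 5-8 cm (-1.83), against 3584.2 and 3631.7 in WT panicles of 9-12 and 5-8 cm.

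Of 33 sucrose and starch genes, 7 were higher and 4 lower in pho, and 2 of the 7 had a signal under 100 in pho panicles of 5-8 cm. SUT1, the sucrose transporter of phloem loading, had signals of 1433.6 and 244.8 in pho panicles of 9-12 and 5-8 cm (2.47), with a WT ratio of 0.66. AMY1.5, an alpha-amylase, was higher (3.01). The sucrose synthase genes diverged, with SUS4 at 1427.8 and 325.4 in pho panicles of 9-12 and 5-8 cm (2.08) and SUS6 at 332.4 and 1102.6 (-1.68) in the same order. CIN2, a cell wall invertase known from grain filling, had 187.9 and 487.5 in pho panicles of 9-12 and 5-8 cm (-1.30) and 2830.3 and 1009.1 in WT panicles of 9-12 and 5-8 cm (1.47). ICL, the isocitrate lyase of the glyoxylate cycle, had 1168.8 and 19.5 in pho panicles of 9-12 and 5-8 cm (5.06) and 248.1 and 450.4 in WT panicles of 9-12 and 5-8 cm (-0.82).

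Hormone genes other than those of jasmonate lay close to the background. Of 50 auxin genes, 8 were higher and 6 lower, and 3 of the 8 had a signal under 100 in pho panicles of 5-8 cm. OsGH3-6 (416.0 and 12.9 in pho panicles of 9-12 and 5-8 cm, 3.90) and OsGH3-2 (2.06), which join auxin to amino acids, had WT ratios of 0.43 and 0.20. Cytokinin genes had 3 of 26 higher and 2 lower. RR1, a response regulator, was lower (467.8 and 1500.0 in pho panicles of 9-12 and 5-8 cm, -1.65; WT 0.19), and LOGL5, related to the enzyme that frees active cytokinin, was higher (1.34). Among 13 brassinosteroid genes 2 were lower and 0 higher, OsDWARF11 (-1.32) and CYP85A1 (-1.25), which both encode enzymes of brassinosteroid synthesis. Among 10 gibberellin genes 1 was lower, OsKO1 (gene 4341347, -1.11), a kaurene oxidase.

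Markers of other tissues were read beside these shifts. For the tapetum, the layer that feeds the pollen, the summed signal of 9 measured genes was 3588 and 814.9 in pho panicles of 9-12 and 5-8 cm, compared with 51168 and 8762 in WT panicles of 9-12 and 5-8 cm. Most of the pho sums came from 1 gene, OsCP1, with 2569.1 and 606.6 in pho panicles of 9-12 and 5-8 cm. In WT panicles of 9-12 and 5-8 cm OsCP1 had 1099.1 and 838.5. C6, a tapetal lipid transfer protein, had 204.5 and 28.0 in pho panicles of 9-12 and 5-8 cm and 15332.8 and 47.0 in WT panicles of 9-12 and 5-8 cm. C6 was thus called higher in both genotypes, with its pho signals far below that of WT panicles of 9-12 cm. Of the 9 genes, 5 did not pass the filter, and 3 of the 4 that did were under 100 in pho panicles of 5-8 cm. The 10 measured meiosis and germ cell genes, of which 5 did not pass the filter, summed to 2209 and 5427 in pho panicles of 9-12 and 5-8 cm. Their sums were 7628 and 11518 in WT panicles of 9-12 and 5-8 cm. MSP1, which limits the number of germ cells, had 1127.1 and 3669.2 in pho panicles of 9-12 and 5-8 cm (-1.69), most of the fall in the pho sum. MEL1 was lower too (-1.28), and TDL1A had a ratio above 0 (0.94) without being called. The 5 measured root markers summed to 1032 and 971.5 in pho panicles of 9-12 and 5-8 cm and to 657.3 and 832.3 in WT panicles of 9-12 and 5-8 cm. RAA1, a regulator of root growth, had 342.5 and 7.1 in pho panicles of 9-12 and 5-8 cm (3.96) and 4.0 and 51.4 in WT panicles of 9-12 and 5-8 cm (-1.75). OsNIP2;1, the silicon channel Lsi1, was called higher too (295.3 and 116.6 in pho panicles of 9-12 and 5-8 cm, 1.23), SHR1 was lower (261.6 and 695.4, in the same order, -1.36), SCR1 was not called (-0.62), and Lsi2, a silicon exporter, did not pass the filter (41.4 and 4.2, in the same order). Of 11 seed storage genes measured, 8 were under 100 in both pho arrays. GLB, the brightest, had 2532.1 and 1050.9 in pho panicles of 9-12 and 5-8 cm, and 1513.0 and 1516.5 in WT in the same order. The glutelin GLUA-2 had 409.8 and 94.2 in pho panicles of 9-12 and 5-8 cm for the brighter of its 2 kept probe sets. With the probe sets of a gene averaged, the median of the list was 0.50 in place of 1.26. The part of these tissues in the other shifts was not tested.

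Over all genes, a larger share of the pho rises than of the pho falls was also seen in WT. Of 2244 genes higher in pho, 593 (26.4%) were at least 2-fold higher in WT, 398 (17.7%) were weaker there, and 1253 (55.8%) were missing. Of 1316 genes lower in pho, 57 (4.33%) were at least 2-fold lower in WT, 239 (18.2%) weaker and 1020 (77.5%) missing. The WT background over the same genes was 6.01% higher and 2.9% lower. WT moved at least 2-fold the other way for 113 of the genes higher in pho and for 25 of those lower. Among the missing genes, 322 of 1253 higher ones and 13 of 1020 lower ones had a WT mean signal under 100. Over probe sets, 2015 of 3482 higher and 2018 of 2486 lower ones were missing in WT. Whether a shift in pho differs from that in WT was not tested, since each rests on 1 array per length.

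**Figure D4:**
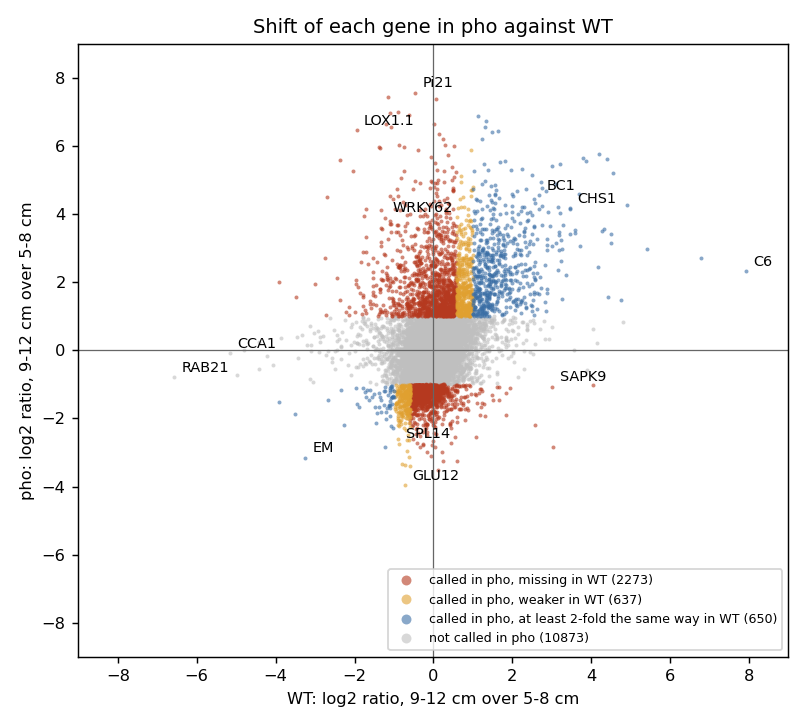
Log2 ratio of each of the 14433 genes, 9-12 cm over 5-8 cm, in pho (vertical) against WT (horizontal), coloured by whether a called pho shift was missing, weaker or shared in WT. Of the genes higher in pho 1253 were missing in WT, and of the genes lower in pho 1020 were.

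Among named genes called in pho and missing in WT, the widest gaps on the higher side were those of LOX1.1, Pi21, PBZ1, OsMT-I-1b, OsBURP02, salT, GER2 and ICL. All of these but salT (488.3) had a signal under 100 in pho panicles of 5-8 cm. They passed the filter only through pho panicles of 9-12 cm, where they were high. OsBURP02, a BURP-domain protein, had signals of 1800.1 and 2.2 in pho panicles of 9-12 and 5-8 cm (6.64) and of 12.4 and 11.9 in WT panicles of 9-12 and 5-8 cm (0.03). GER2 had 6351.6 and 61.4 in pho panicles of 9-12 and 5-8 cm (6.36) and 1915.3 and 1725.5 in WT panicles of 9-12 and 5-8 cm (0.15). GER2 and salT thus had the highest WT signals of this set. For both, WT at either length lay above pho panicles of 5-8 cm and below those of 9-12 cm.

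On the lower side the widest gaps were those of SAPK9, ADF10, CPK12, GLU14, OsCesA2, CIN2, BBD1 and SUS6. Of these, ADF10, CPK12 and GLU14 were under 100 in pho panicles of 9-12 cm and passed the filter only through those of 5-8 cm. ADF10, an actin-depolymerizing factor, had 12.1 and 248.7 in pho panicles of 9-12 and 5-8 cm (-3.24) and 147.3 and 121.9 in WT panicles of 9-12 and 5-8 cm (0.24). SAPK9, a kinase of abscisic acid signalling, had 225.5 and 489.1 in pho panicles of 9-12 and 5-8 cm (-1.06) and 3687.4 and 441.1 in WT panicles of 9-12 and 5-8 cm (3.02). Its gap was thus made mainly by WT panicles of 9-12 cm. For ADPRT-3, a poly(ADP-ribose) polymerase, pho panicles of 5-8 cm stood above the other samples, with 306.5 and 2091.6 in pho panicles of 9-12 and 5-8 cm (-2.71) and 422.7 and 574.4 in WT panicles of 9-12 and 5-8 cm (-0.43).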

How the data were processed

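Panicle RNA of pho and WT at 9-12 and 5-8 cm was hybridized to 1 Affymetrix array each. The deposited values are MAS5 signal intensities from GCOS, summarized per probe set and scaled by the authors to the same overall intensity; versions are not given in the sources used here. Every array had a trimmed mean (2% off each end) of 500.1. Detection calls were not used.

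After leaving out 123 AFFX controls, signals were not normalized again, 16 was added before log2, and probe sets reaching a pho mean of 100 were kept. Just outside this limit lay means of 99.9 to 99.95 with log2 ratios of -0.33 to 0.57, and just inside it means of 100.0 with ratios of 0.20 to 0.68. Array annotation paired 22436 probe sets with 1 gene and 95 with several; 7309 kept probe sets had no single gene and entered only the probe set counts. Names came from RefSeq symbols and synonyms (assembly ASM3414082v1), and 2109 of the 14433 genes had one. No sequence is printed.

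Of the gene groups, 5 of 53 (kinesins, Casparian strip membrane proteins, beta-glucosidases, calmodulin-like proteins and metallothioneins) were added after values were seen, and others were trimmed then of wrongly matched names. Members and lists were chosen with earlier results of these data known, so no list is independent evidence. The rule for named genes takes OsMADS1, OsMADS15, the 12 named genes with the largest rise and the 12 with the largest fall, up to 3 members of each list with the largest shift, and the 8 named genes each way with the largest pho minus WT difference among those missing in WT; it took 170 genes, not all of which are printed. Further members, such as PCNA, the FEN1 genes, RPA14, KIN14M, OSH1, CCA1, JAZ8, JAZ11, JAZ12, OsCesA7, OsCesA9, OsMADS7, OsMADS58, RAB21, Chia1d, PAL06, CAD2, CAD6, 4CL.2, Chib3H-a, BC1L2 and Lsi2, were chosen after their values were seen. The procedure was tested on simulated data. Scripts ran under Python 3.11.15 with matplotlib 3.10.9, pandas 2.3.3 and numpy 2.4.6.

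The settings varied were the pseudocount (1 and 64), the filter (none, and 200), centring each array, quantile normalization, leaving out probe sets of shared sequence, averaging the probe sets of a gene, and other limits for a shift missing in WT. The number of arrays limits the precision.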

Additional observations from a re-analysis of the deposited data

Results flagged for a closer look

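Among the 170 genes taken by the naming rule, 12 moved at least 2-fold between 5-8 and 9-12 cm in pho and in WT and in opposite directions. The same was true of 138 of all 14433 genes, 32 of them with a name. The difference was not tested, since each ratio rests on 1 array per length. The pho log2 ratio exceeded the WT ratio by 8.42 for LOX1.1, by 7.63 for OsMT-I-1b, by 5.71 for RAA1, by 5.12 for WRKY62, by 4.85 for OsCASPL1U2, by 4.38 for WRKY71 and by 3.37 for SAUR39, a small auxin-up RNA gene. All of these were higher in pho and lower in WT at 9-12 cm. Apart from WRKY71 and SAUR39, they had a signal under 100 in pho panicles of 5-8 cm and passed the filter only through those of 9-12 cm. The opposite pattern, lower in pho and higher in WT, gave differences of -4.08 for SAPK9, -3.24 for CPK12, a calcium-dependent protein kinase, -2.85 for OsCesA2, -2.78 for CIN2 and -2.68 for BBD1. In these data the WT panicles of 9-12 cm also differ from the other 3 samples in the clock genes CCA1 and GI, and the part of this in the opposite shifts was not tested.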

How the results depend on the processing

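No paired analysis was possible because there was 1 array per genotype and length, and for the same reason no replicate could be left out. The counts of pho probe sets at least 2-fold higher and lower (3482 and 2486), and of shifts missing in WT, changed by over 1.5 times under these settings: without the filter on low values they were 9651, 5359 and 10716, and with each array centred on the median of all probe sets the lower count was 5034. No called ratio of a list or named gene changed sign. List medians that moved by over 1.5-fold were, without the filter, those of SEP-like MADS genes (0.53), expansins (0.49), chitinases and PR10 (2.71), root markers (1.23) and seed storage markers (0.51). With a pseudocount of 1 chitinases and PR10 had 4.71, and with 64 they had 3.07 and the tapetum list 1.52. Without probe sets of shared sequence SEP-like MADS genes had -1.33 and metallothioneins 4.37, and with a minimum of 200 metallothioneins had 2.29. Averaged over probe sets, WRKY factors had 2.31 and seed storage markers 0.50. The other 447 of 460 list values stayed within 1.5-fold, as did 1410 of 1478 values of named genes. Centring on the median of all probe sets moved the median of the kept pho probe sets to -0.45, with list medians near 0 turning negative, such as aquaporins (-0.07) and gibberellin genes (-0.02). Medians of 2-fold or more then came under 2-fold for beta-glucosidases (0.77), calmodulin-like proteins (0.66), nitrogen genes (0.74), JAZ genes (0.93) and seed storage markers (0.92). The same happened with a pseudocount of 64 for beta-glucosidases (0.93), calmodulin-like proteins (0.87) and nitrogen genes (0.79), without the filter for beta-glucosidases (0.94), calmodulin-like proteins (0.89), nitrogen genes (0.71) and dehydrins (-0.79), with a minimum of 200 for calmodulin-like proteins (0.94) and growth-regulating factors (-0.81), and with quantile normalization for calmodulin-like proteins (0.92) and nitrogen genes (0.84). Of the values of named genes, 18 were called with the settings of the report and not called with an alternative. Of the called rises, 1333 had a signal under 100 at 5-8 cm, where a ratio depends most on the pseudocount.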
